A study of Mus musculus with 4 samples.

Results

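The genes described here carry the beta-adrenergic and cyclic AMP (cAMP) signal of the adipocyte: the receptor genes Adrb1 and Adrb3, the adenylyl cyclase genes Adcy3 and Adcy5, the protein kinase A (PKA) subunit genes Prkar2b and Prkaca, the phosphodiesterase genes Pde3b and Pde4d, and Creb1, which encodes a transcription factor that PKA activates. Chromatin accessibility around them was measured by ATAC-seq, in which the Tn5 transposase inserts adapters into open DNA and dense insertions are called as peaks. The 9 genes were chosen from the pathway with earlier results of the same peak lists known, among them a strong day 8 peak inside Adcy5. Their peaks were then selected by position alone: any peak with its summit in the gene body or within 50 kb of an annotated transcription start site (TSS). Peaks of the 4 lists that shared at least 1 bp were merged into a site, and 202 of the 100608 sites of the whole series belonged to these genes.

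The cells were im-scWAT cells, the stromal vascular fraction of mouse subcutaneous white fat, immortalised with SV40 large T antigen. One culture was Jmjd1a +/+ (WT), and the other Jmjd1a HY/HY (HY), in which a histidine-to-tyrosine change inactivates the histone H3 lysine 9 demethylase JMJD1A. Each genotype was sampled before differentiation (D0) and 8 days after induction towards beige adipocytes (D8), with 1 library each and so no replicate. Both genotypes received the same induction medium, which held 3-isobutyl-1-methylxanthine (IBMX, itself a phosphodiesterase inhibitor), dexamethasone, indomethacin, rosiglitazone, insulin and T3, and then insulin, T3 and rosiglitazone alone. Every difference below compares these libraries. With 1 library per group, no test between conditions was run, and all intervals given (95%) reflect counting error alone. The genotypes were separate immortalised cultures, so an effect of the allele and a difference between the cultures cannot be told apart. Nor can a site that opened in a part of the cells be told apart from one that opened less in all of them.

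Noradrenaline released by sympathetic nerves binds beta-adrenergic receptors, which act through the G protein Gs on adenylyl cyclase. The cAMP it makes binds the regulatory subunits of PKA and frees the catalytic subunits, which phosphorylate lipolytic proteins and CREB. Phosphodiesterases degrade cAMP and end the signal. In rodent adipocytes this chain drives lipolysis and the thermogenic programme, and the beta3 receptor is its adipose-enriched entry point.

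The sequences that carry the main changes are given first, so that they can be read against the values. Each is the 201 bp centred on the summit of the site's strongest peak, on the forward strand of mm9 (NCBIM37), and none overlaps an annotated exon. A site is named by its gene and the distance from the gene's nearest TSS to the summit, positive along transcription. Capitals mark matches on either strand to 7 motifs: the cAMP response element (CRE, TGACGTCA), its core (TGACG, which the full element contains), AP-1 (TGANTCA), C/EBP (TTNNGCAA), an EBF element (TCCCNNGGGA), a DR1 element of PPAR and RXR (AGGNCANAGGNCA) and a glucocorticoid response element (GNACANNNTGTNC). A sequence without capitals holds none of them. The first 5 belong to the sites with the most tags in the weaker D8 library among those with no peak or at most 11 tags at D0:
Adcy5 +62.2 kb (chr16:35217017-35217217): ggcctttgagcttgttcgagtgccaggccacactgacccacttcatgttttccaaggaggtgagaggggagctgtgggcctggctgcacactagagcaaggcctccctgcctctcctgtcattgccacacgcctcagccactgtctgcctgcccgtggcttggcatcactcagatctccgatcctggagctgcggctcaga
Prkar2b -48.1 kb (chr12:32794187-32794387): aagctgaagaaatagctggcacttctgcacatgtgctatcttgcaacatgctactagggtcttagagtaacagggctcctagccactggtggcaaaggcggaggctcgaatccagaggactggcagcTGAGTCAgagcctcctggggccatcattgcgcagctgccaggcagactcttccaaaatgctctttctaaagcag
Pde4d -7.8 kb (chr13:110705169-110705369): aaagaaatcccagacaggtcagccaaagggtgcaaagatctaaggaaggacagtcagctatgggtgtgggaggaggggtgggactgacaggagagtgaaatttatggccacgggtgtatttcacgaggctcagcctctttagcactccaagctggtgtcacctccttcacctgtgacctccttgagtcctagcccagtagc
Pde4d +32.1 kb (chr13:110776303-110776503): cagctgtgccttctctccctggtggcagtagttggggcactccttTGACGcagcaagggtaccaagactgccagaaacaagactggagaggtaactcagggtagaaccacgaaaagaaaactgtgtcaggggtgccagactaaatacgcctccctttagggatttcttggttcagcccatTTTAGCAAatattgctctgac
Prkaca -8.8 kb (chr8:86487937-86488137): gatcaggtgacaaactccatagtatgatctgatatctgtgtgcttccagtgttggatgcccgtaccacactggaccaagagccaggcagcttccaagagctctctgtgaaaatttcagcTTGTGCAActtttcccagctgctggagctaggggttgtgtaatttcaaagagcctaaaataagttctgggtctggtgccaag
The next 2 sites lay at or close to a TSS and were called at D8 only:
Adcy3 -0.2 kb (chr12:4159251-4159451): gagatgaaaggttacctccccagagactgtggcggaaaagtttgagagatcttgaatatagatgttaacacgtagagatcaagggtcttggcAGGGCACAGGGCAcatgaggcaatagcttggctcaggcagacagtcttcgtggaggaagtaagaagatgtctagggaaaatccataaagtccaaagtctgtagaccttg
Adrb3 -1.2 kb (chr8:28341179-28341379): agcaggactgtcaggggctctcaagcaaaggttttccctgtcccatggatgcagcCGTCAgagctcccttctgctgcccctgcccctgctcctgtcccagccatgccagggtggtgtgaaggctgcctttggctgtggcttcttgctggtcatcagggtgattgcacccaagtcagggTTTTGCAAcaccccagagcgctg
The last 2 went the other way between the days:
Pde4d +89.0 kb (chr13:109329087-109329287): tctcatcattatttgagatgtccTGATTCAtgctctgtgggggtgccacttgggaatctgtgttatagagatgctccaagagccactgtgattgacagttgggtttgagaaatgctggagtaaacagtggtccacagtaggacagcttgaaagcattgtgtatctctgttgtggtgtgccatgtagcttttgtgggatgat
Prkar2b +45.1 kb (chr12:32700217-32700417): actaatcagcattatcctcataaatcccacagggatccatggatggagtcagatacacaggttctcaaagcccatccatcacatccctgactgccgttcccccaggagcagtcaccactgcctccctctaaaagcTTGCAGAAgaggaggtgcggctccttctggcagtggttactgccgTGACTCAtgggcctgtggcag

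The labelled cell states were checked at the promoters of marker genes. Of 6 adipocyte genes, 1 had a promoter peak in each D0 library and 5 in each D8 library. Of 6 preadipocyte or stromal genes, 6 had one in WT D0, 5 in HY D0 and 2 in each D8 library. Of 4 beige or brown genes, 0 had one in WT D0, 1 in HY D0 and 2 in each D8 library, and Ucp1 and Dio2 had none in any library. The 4 leukocyte and 3 skeletal muscle genes had none in any library. Endothelial genes had 2, 0, 1 and 1 of 3 and neuronal genes 0, 0, 2 and 1 of 3 in WT D0, WT D8, HY D0 and HY D8. The part of other cell types in the results was not tested. The lists held 41228 to 77994 peaks. Values below are summit pileups, the number of overlapping tags at a peak's summit, solved from each peak's deposited fold and p-value. Ratios between libraries are of pileups divided by the library's background rate, which was 0.659 tags at D0 and 0.531 at D8 in WT, and 0.708 and 0.494 in HY. A peak at that rate needed 5 tags, or 4 in HY D8, so at a site with no called peak the pileup is unknown, not 0.

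The question of which sites appear or disappear as preadipocytes become adipocytes was asked site by site in each genotype. A site is called opened when its library had a peak at D8 and none at D0, and closed in the reverse case. In WT, 31 of the 151 sites with a peak on either day opened (20.5%, against 12.1% of all sites in the genome) and 71 closed (47%, against 52.7%). In HY, 38 of 175 sites opened (21.7%, against 13.7%) and 84 closed (48%, against 49.3%). Since the genes were picked with these lists known, nothing is read from the gap to the background. Opening was called in both genotypes at 20 sites (9.9%, beside 5.99% of all sites), closing in both at 48 (23.8%, beside 24.6%), and 42 had a peak in all 4 libraries (20.8%, beside 24.2%). The gene of the list with the longest window, Pde4d, held 88 of the sites. Without it, 27.8% of the sites opened in each genotype, while 40% closed in WT and 39.2% in HY. The balance of opened and closed sites also followed the length of the lists. When each list was shortened to the 41228 strongest peaks, the full length of the shortest (at least 41105 of them on assembled chromosomes in each list, where sites were built), 44 member sites opened and 25 closed in WT, and 35 opened and 32 closed in HY. That is 42.3% and 34.7% opened, beside 25.5% of all sites in each genotype, and 24% and 31.7% closed, beside 31.7% and 30.2%.

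Sites that had peaks on both days changed in height at few places. Of the 49 such sites in WT, 5 were at least 2-fold higher at D8 (10.2%, against 4.78% of all sites) and 4 at least 2-fold lower (8.16%, against 14.7%). Of the 53 in HY, 6 were higher (11.3%, against 5.27%) and 8 lower (15.1%, against 17.2%). These counts moved with the processing. In HY they became 4 higher and 17 lower without scaling, 3 and 1 under the 50% overlap rule, and 2 and 2 at a -log10 q cutoff of 5. In WT they became 3 and 8, 2 and 1, and 2 and 2 under the same settings. The median ratio of D8 to D0 over the member sites was 0.984 in WT and 0.859 in HY, beside 0.896 and 0.884 over all sites.

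**Figure D1:**
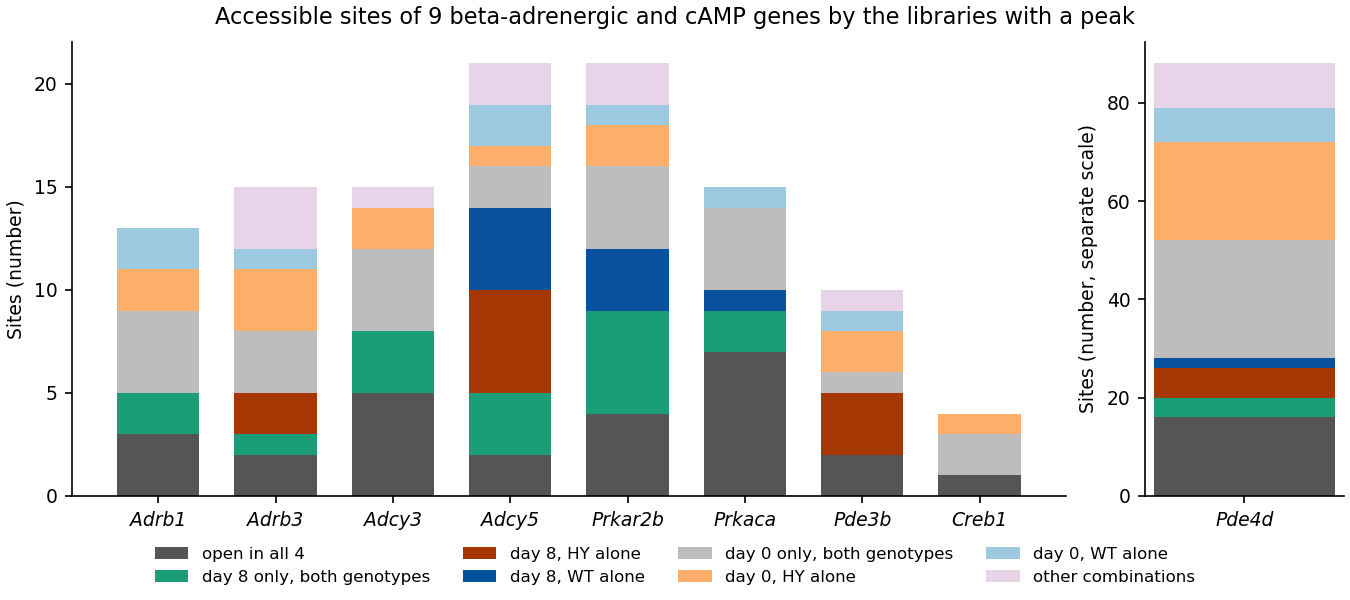
Number of sites per gene (vertical axis), coloured by the libraries that had a peak; Pde4d has an axis of its own, with 88 sites. Prkar2b has the most sites called at D8 only in both genotypes (5), and Creb1 and Pde3b have none.

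The genes differed widely in this. By sites opened in both genotypes, Prkar2b (5) was one of 139 genes tied at rank 107 of 22225 protein-coding genes, Pde4d (4) one of 288 tied at rank 246, and Adcy3 and Adcy5 (3 each) 2 of 618 tied at rank 534. Adrb1 and Prkaca had 2 each, Adrb3 had 1, and Pde3b and Creb1 had 0. These ranks describe the same counts and do not allow for the length of a gene: the density of sites ran from 3.29 per 100 kb of window for Creb1 to 14.8 for Adrb3. In open sites per library, Adcy5 went from 7 at D0 to 11 at D8 in WT and from 6 to 11 in HY. Prkar2b went from 11 to 13 in WT and had 11 on both days in HY. Most others had fewer sites at D8 than at D0, as did the genome, where open sites went from 68404 to 36793 in WT and from 76806 to 45143 in HY. Pde4d went from 55 to 26 in WT and from 67 to 32 in HY, Creb1 from 3 to 1 and from 4 to 1, Adrb1 from 9 to 5 in both, and Adrb3 from 9 to 3 in WT and from 11 to 8 in HY.

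Adrb1 (chr19:56796862-56799352) encodes the beta1 receptor, which noradrenaline activates in many tissues. Its promoter site, -0.5 kb, had 14 tags at D0 and 24 at D8 in WT, and 17 and 15 in HY. After scaling, WT D8 was 2.13 times WT D0 (1.06 to 4.45), and the interval of the HY ratio held 1. With sites built from summits within 150 bp, or with lists of equal length, WT D0 had no peak there and this ratio was lost. The site 44.7 kb upstream had 11 tags at D0 in both genotypes, and 28 and 21 at D8 in WT and HY. It was 3.16 times higher at D8 in WT (1.52 to 7.03) and 2.73 times higher in HY (1.26 to 6.28), so both cultures moved the same way beyond counting error. The 2 sites opened in both genotypes were weak: -18.4 kb had 11 tags in each D8 library, and +21.9 kb had 11 in WT and 10 in HY. The strongest site closed in both, +37.6 kb, had 18 tags in WT D0 and 23 in HY D0. A site in the single coding exon, +1.4 kb, was also called at D0 only, with 11 and 10 tags. Another gene's TSS was nearer for 5 of the 13 sites.

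Adrb3 (chr8:28336248-28340060, reverse strand) encodes the beta3 receptor. The stretch within 6 kb of its annotated TSSs, picked after its values were seen, held 6 sites. Of these, 3 had a peak in WT D0, 3 in HY D0, 1 in WT D8 and 6 in HY D8. The site that opened in both genotypes was -1.2 kb (chr8:28341194-28341373), just upstream of the first TSS, with 10 tags in WT D8 and 18 in HY D8. At the most downstream of the 3 TSSs, in a non-coding exon 1.1 kb from the first, a peak was called in HY D8 alone, with 13 tags. A coding-exon site at +0.3 kb was likewise called in HY D8 alone, with 11 tags. The coding-exon site +0.9 kb had 15 tags in WT D0, 14 in HY D0 and 12 in HY D8, and no peak in WT D8. At +5.5 kb the values were 11, 14 and 14 tags in the same order, again with no peak in WT D8. At -5.2 kb they were 28, 15 and 8 tags. WT D8 lacked a called peak at 5 of the 6 sites where HY D8 had one. Over all sites with a D8 peak in either genotype, 26.3% were called in HY only and 9.53% in WT only, and the D8 list of HY was the longer, with 48964 peaks against 41228. These peaks were low. After peaks under a -log10 q of 5 were left out, 3 of the sites had a peak in each D0 library, 0 in WT D8 and 3 in HY D8, the last at +5.5 kb, +0.0 kb and -1.2 kb.

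Farther from Adrb3, the site -31.8 kb, in an intron of Eif4ebp1, had 50 tags at D0 and 50 at D8 in WT, and 59 and 51 in HY. The site +15.1 kb was closed in both genotypes, with 22 tags in WT D0 and 26 in HY D0. With sites built from summits within 150 bp, or under the 50% overlap rule, only HY D0 had a peak there. For 8 of the 15 sites another gene's TSS was nearer. Over the 4 libraries, the protein-coding genes whose summed site signal, as log2 of the scaled pileup plus 1, lay closest to that of Adrb3 were B230120H23Rik (Euclidean distance 0.270), D10Wsu102e (0.278) and Eif4ebp1 (0.283). Eif4ebp1 is its neighbour and shares sites with it.

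**Figure D2:**
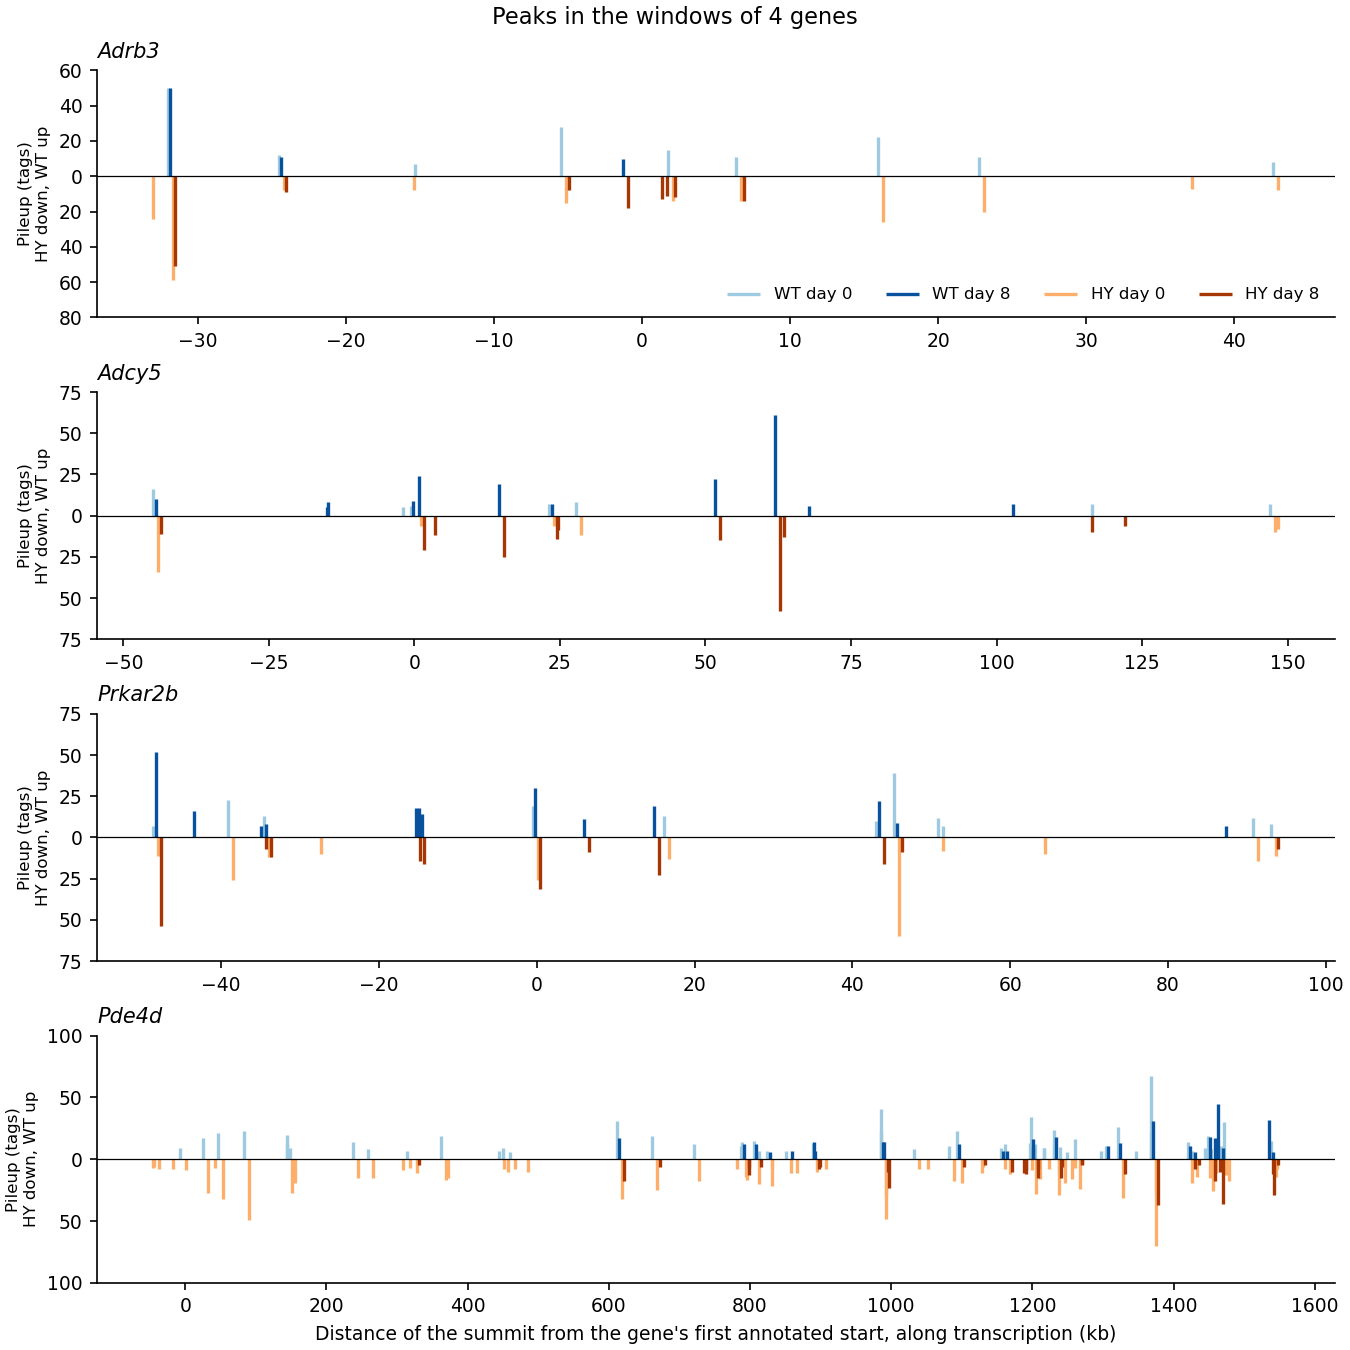
Summit pileup (tags; WT above the line, HY below) of each peak against the distance of the site's summit from the gene's first TSS along transcription, in kb, for Adrb3, Adcy5, Prkar2b and Pde4d; bars of 1 site are set slightly apart. The 61 and 58 tags of the D8 libraries at Adcy5 +62.2 kb stand out. So does the near absence of D8 bars up to 600 kb from the first TSS in the Pde4d window.

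Adcy3 (chr12:4133103-4213525) encodes a cyclase that is widely expressed. Its main promoter had 20 tags at D0 and 14 at D8 in WT, and 30 and 17 in HY, and the interval of the D8 to D0 ratio held 1 in both genotypes. A second promoter site lay inside the gene, 0.2 kb upstream of the TSS of a processed transcript and 26.2 kb from the first TSS (chr12:4159067-4159529). It was called at D8 only, with 10 tags in WT and 9 in HY. Its sequence, printed above, was the only one among the member sites to match the DR1 element, from 8 bases before the summit on. The intronic sites -7.5 kb (10 tags in WT and 11 in HY at D8) and -14.8 kb (9 in each) also opened in both genotypes. The first of them held 1 of the 2 EBF matches among the member sites. The site closed in both with the highest weaker pileup was +1.7 kb in an intron, with 11 and 13 tags at D0. Only HY D0 kept that peak at a -log10 q cutoff of 5, and no library did with lists of equal length. The site -50.2 kb, in an intron of Dnajc27, had 46 tags in WT D0 and 47 in HY D0, and 19 and 17 at D8. Scaled, it was 0.513 times its D0 height in WT and 0.518 times in HY, with intervals below 1 in both.

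Adcy5 (chr16:35154963-35305823) encodes another cyclase of the membrane family and had the strongest opening of all the member genes. The intronic site +62.2 kb (chr16:35216921-35217492) had no peak at D0 in either genotype, 61 tags in WT D8 (46.7 to 78.4) and 58 in HY D8 (44.0 to 75.0). It was one of the peaks known before the genes were chosen, so its height is a description. The intronic sites +14.7 kb and +51.9 kb were new at D8 as well. At the first the D8 pileup was 19 in WT and 25 in HY, and at the second 22 and 15. The site +1.0 kb, in a non-coding exon stretch, had no peak in WT D0 and 6 tags in HY D0, then 24 in WT D8 and 21 in HY D8. In HY this was 5.01 times the D0 height, with an interval above 1. The annotated TSS itself carried only a small peak in WT, 6 tags at D0 and 9 at D8, and none in HY. In the other direction, the intronic site +28.4 kb was called at D0 only, with 8 tags in WT and 12 in HY. Only HY D0 kept that peak at a -log10 q cutoff of 5, and no library did with lists of equal length. The site -44.2 kb had 16 tags at D0 and 10 at D8 in WT, and 34 and 11 in HY, a D8 to D0 ratio of 0.463 in HY with an interval below 1. Of the 21 sites, 5 were called in HY D8 alone and 4 in WT D8 alone, with at most 13 and 8 tags. Of all 100608 sites, 4994 were called in HY D8 alone and 2219 in WT D8 alone.

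Prkar2b (chr12:32643341-32746161, reverse strand) encodes the RII beta regulatory subunit of PKA, the main regulatory form in fat. The site 48.1 kb upstream (chr12:32793923-32794460) had 7 tags at D0 and 52 at D8 in WT, and 11 and 54 in HY. It was 9.22 times higher at D8 in WT (4.17 to 24.1) and 7.03 times higher in HY (3.63 to 14.9), the largest ratio of any shared member site in each genotype. The promoter had 19, 30, 26 and 31 tags in the same order. Its WT ratio was 1.96 (1.07 to 3.68), and the HY interval held 1. The 5 sites opened in both genotypes were +14.3 kb (19 tags in WT and 23 in HY at D8) and +5.4 kb (11 and 9) in introns, and -14.7 kb (18 and 16), -15.2 kb (18 and 14) and -34.8 kb (7 and 7) upstream. A neighbour of the -14.7 kb site, -14.4 kb, was called in WT D8 alone with 14 tags, as was -43.3 kb with 16 tags. These were the strongest sites that only WT had at D8.

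Loss also occurred at Prkar2b. The intronic site +45.1 kb had 39 tags in WT D0 and 60 in HY D0, and 9 in each D8 library. The scaled ratio was 0.286 in WT and 0.215 in HY, with intervals below 1 in both. Close by, +42.8 kb went the other way in WT, from 10 to 22 tags (ratio 2.73, interval above 1), and was called in HY at D8 only, with 16 tags. The site -38.7 kb was called at D0 only, with 23 tags in WT and 26 in HY.

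Prkaca (chr8:86496877-86520344) encodes the C alpha catalytic subunit of PKA. Its promoter was among the highest of the member sites and nearly level: 67 tags at D0 and 61 at D8 in WT, and 72 and 67 in HY. No site had its summit within the gene body, and 14 of the 15 sites lay nearer to the TSS of another gene. Those opened in both genotypes, -8.8 kb (22 tags in each D8 library) and -8.3 kb (10 in WT and 8 in HY), were in introns of the neighbouring Asf1b. The -16.0 kb site, also in Asf1b, had 20, 23, 17 and 29 tags in WT D0, WT D8, HY D0 and HY D8, and its HY ratio of 2.44 had an interval above 1. The strongest site closed in both was +32.9 kb, with 20 and 19 tags at D0. The +26.4 kb site, in an intron of 1700067K01Rik, was called in WT D8 alone with 11 tags.

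**Figure D3:**
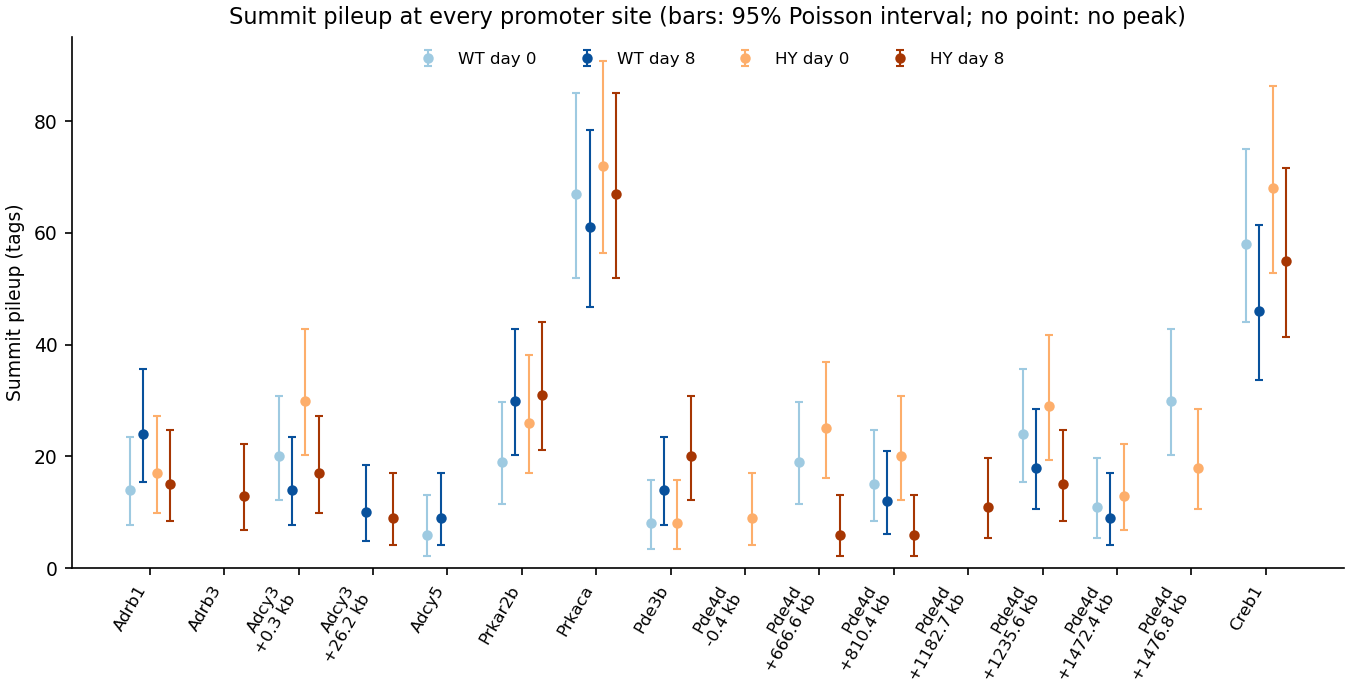
Summit pileup (tags, vertical axis) at each of the 16 promoter sites in the 4 libraries, with 95% Poisson intervals; a missing point means that no peak was called, and kb labels give the distance from the gene's first TSS. Prkaca and Creb1 lie between 46 and 72 tags in every library, and all others at 31 or below.

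Pde3b (chr7:121558795-121682765) encodes the phosphodiesterase through which insulin lowers cAMP in adipocytes. The promoter site, -0.4 kb, had 8 tags at D0 and 14 at D8 in WT, and 8 and 20 in HY. The HY ratio was 3.58 (1.51 to 9.40), and the WT interval held 1. This call moved with the definition of a site: its set of libraries with a peak was different under each of the 4 other definitions tried. No site opened in both genotypes. Outside the promoter, D8 peaks within the gene were found in HY alone, at 4 sites with 5 or 6 tags each, close to the lowest that could be called. The intronic site -26.1 kb was closed in both, with 7 tags in WT D0 and 15 in HY D0. At a -log10 q cutoff of 5, or with lists of equal length, only HY D0 kept that peak. Beyond the gene, +41.2 kb, 10 bp from the TSS of Cyp2r1, had 29, 25, 24 and 30 tags in WT D0, WT D8, HY D0 and HY D8. Its HY ratio of D8 to D0 was 1.79 (1.01 to 3.20), and the WT interval held 1.

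Pde4d (chr13:109240142-110746171, under 2 annotation entries with 20 TSSs) encodes a cAMP-specific phosphodiesterase with many isoforms that start at different promoters. Few D8 peaks were found in the part of its window up to 600 kb from the first TSS, a limit picked after the values were seen. That part held 25 sites, some upstream of the gene, including in introns of Depdc1b, and others nearest to the TSS of Gm9000. Of these sites, 14 had a peak in WT D0 and 22 in HY D0, but 0 in WT D8 and 1 in HY D8. Over all sites, those open at D8 came to 53.8% of those open at D0 in WT and 58.8% in HY. Over the whole of Pde4d they came to 47.3% and 47.8%. From 600 kb on, 41 of the 63 sites had a peak in WT and 45 in HY before differentiation, against 26 and 31 afterwards. Sites closed in both genotypes numbered 11 of the 25 in the first part and 13 of the 63 in the second, beside 24.6% of all sites. The intronic site +89.0 kb (chr13:109328906-109329765), in the first part, had 23 tags in WT D0 and 49 in HY D0. Of the gene's sites closed in both genotypes, it had the highest weaker D0 pileup.

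The promoters of Pde4d behaved differently from one another. The one at the first TSS had a peak in HY D0 alone, with 9 tags. The one 666.6 kb downstream had 19 tags in WT D0, 25 in HY D0 and 6 in HY D8, and no peak in WT D8. The HY ratio there was 0.344, with an interval below 1, but the HY D8 peak was no longer matched to this site under the 50% overlap rule and was left out by a -log10 q cutoff of 5, so neither gave a ratio. Those 810.4 kb and 1235.6 kb from the first TSS had peaks in all 4 libraries, 15, 12, 20 and 6 tags for the former and 24, 18, 29 and 15 for the latter. The HY D8 peak at 810.4 kb was lost under the 50% overlap rule and at a -log10 q cutoff of 5. With sites built from summits within 150 bp, WT D8 had no peak at 1235.6 kb. The one 1182.7 kb away was called in HY D8 alone with 11 tags. Near the 3′ end, the promoter at 1472.4 kb had 11 tags in WT D0, 9 in WT D8 and 13 in HY D0. WT D0 lost its peak there under the 50% overlap rule. Only HY D0 kept one at a -log10 q cutoff of 5, and no library did with lists of equal length. The promoter at 1476.8 kb was called at D0 only, with 30 tags in WT and 18 in HY. Of the 7 promoter sites, none was called at D8 only in both genotypes.

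The 4 sites opened in both genotypes lay from 892.8 kb to 1536.3 kb beyond the first TSS. The intronic site -7.8 kb (chr13:110704952-110705508), 1465.1 kb from the first TSS, had no peak at D0, and at D8 had 45 tags in WT and 36 in HY. The site +32.1 kb, beyond the last annotated exon, had 32 and 29. The others opened in both genotypes were +8.0 kb (17 and 10 tags) and +82.1 kb (14 and 8), both intronic. The site +2.2 kb, 1309.4 kb from the first TSS, had a peak in WT alone on both days, with 11 tags each time.

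Creb1 (chr1:64579378-64651121) encodes the cAMP response element binding protein. It had 4 sites, the fewest of the genes. The promoter was open in every library, with 58 tags at D0 and 46 at D8 in WT, and 68 and 55 in HY, and no ratio between libraries had an interval that left out 1. The 3 sites downstream had no D8 peak. The strongest, +68.8 kb, in a non-coding exon stretch of the gene, had 16 tags in WT D0 and 19 in HY D0.

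Whether the inactive demethylase went with other open sites at these genes was asked on each day. At D0, 36 of the 156 sites with a peak in either genotype were called in HY only (23.1%, against 21.7% of all sites) and 19 in WT only (12.2%, against 12.1%). At D8, 26 of 106 were called in HY only (24.5%, against 26.3%) and 15 in WT only (14.2%, against 9.53%). The HY-only shares lay near those of the genome on both days. The strongest D8 sites of HY alone were Adrb3 +5.5 kb (14 tags), Adrb3 +0.0 kb (13), Adcy5 +62.8 kb (13), and 4 sites tied at 12 tags, Adrb3 +0.9 kb, Adcy5 +2.9 kb, Pde4d +31.5 kb and Pde4d +3.3 kb. When peaks under a -log10 q of 5 were dropped, 10 of 66 sites were HY only (15.2%, against 19.1% of all sites at that cutoff) and 9 WT only (13.6%, against 11.8%).

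Where both genotypes had a peak at D8, few heights differed past 2-fold. Of 65 such sites, 1 was at least 2-fold higher in HY (1.54%, against 1.68% of all sites) and 0 were at least 2-fold lower (against 0.512%). The median ratio of HY to WT was 1.02, beside 1.11 over all sites, and 0 of the 65 intervals left out 1 (against 1.02% of all such sites). The single site past 2-fold was Adcy5 +23.8 kb, with 7 tags in WT and 14 in HY at D8 and a ratio of 2.15. The direction turned with the scaling. Scaled to shared promoters, 0 sites were at least 2-fold higher in HY and 2 at least 2-fold lower, and without scaling 1 was higher and 2 were lower. At Adcy5 +62.2 kb, Prkar2b -48.1 kb, Pde4d -7.8 kb and Prkaca -8.8 kb the pileups of the genotypes differed by 9 tags or less. At such numbers of tags, only large differences would have shown. At D0, the intervals left out 1 at 4 of the 101 sites shared by the genotypes (3.96%, beside 2.43% of the 57846 such sites in the genome). With 95% intervals a few are left out among so many even where nothing differs, so these ratios of HY to WT are given as values only: 2.93 at Pde4d +18.8 kb, 1.98 at Adcy5 -44.2 kb, 1.98 at Pde4d +89.0 kb and 0.499 at Adrb3 -5.2 kb.

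**Figure D4:**
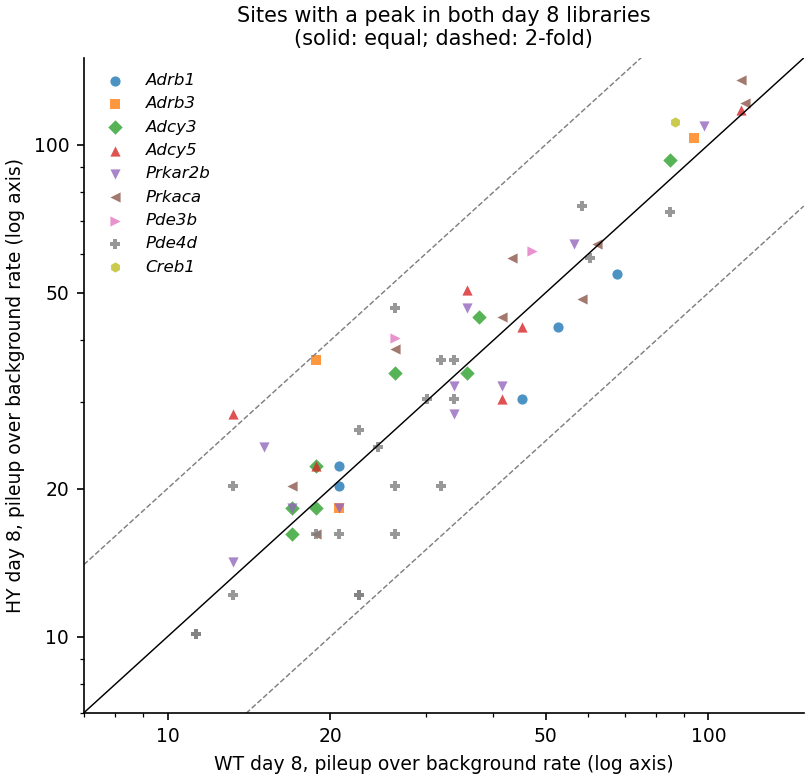
Scaled pileup (summit pileup over the library's background rate, log axes) in HY D8 against WT D8 for the 65 sites with a peak in both; the solid line is equality and the dashed lines a 2-fold difference. Only Adcy5 +23.8 kb lies above the upper dashed line and none below the lower.

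Of the 42 sites with a peak in all 4 libraries, 7 had day ratios on opposite sides of 1 in WT and HY (16.7%, beside 22.9% of all such sites), and at 0 of these did both intervals leave out 1. Both intervals left out 1 at 4 of the 42 (9.52%, beside 12% of the 24369 such sites in the genome), each time on the same side: Adrb1 -44.7 kb, Adcy3 -50.2 kb, Prkar2b -48.1 kb and Prkar2b +45.1 kb. At most of the others the intervals held 1. The sites at the extremes, Prkar2b -48.1 kb and +45.1 kb, were so in both genotypes.

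**Figure D5:**
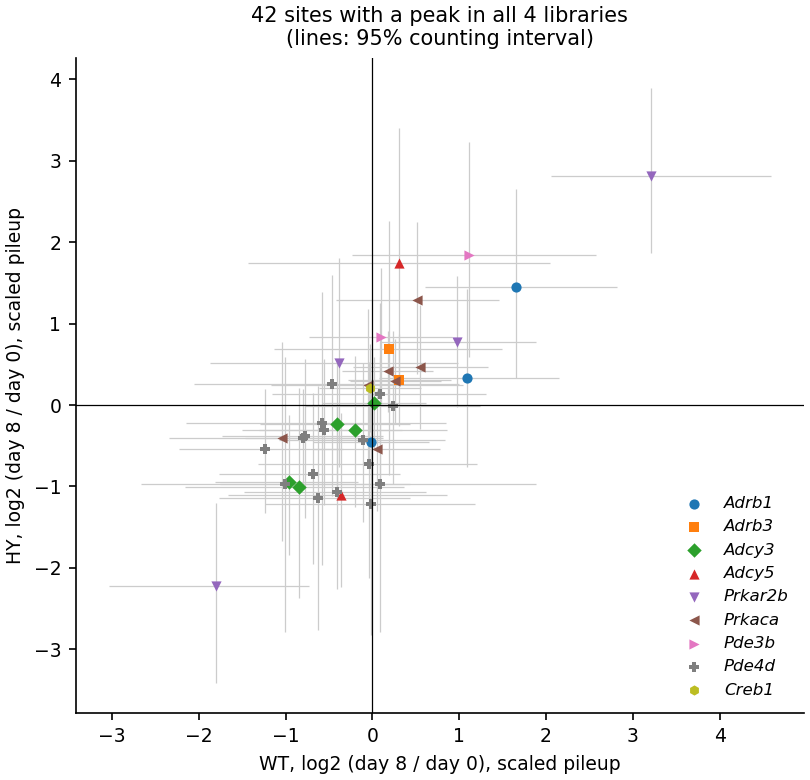
Log2 ratio of D8 to D0 scaled pileup in HY against WT for the 42 sites with a peak in all 4 libraries, with 95% counting intervals. Prkar2b -48.1 kb lies at the upper right and Prkar2b +45.1 kb at the lower left, and most other intervals cross 0.

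The classes of member sites were described by position and sequence, with no test. The 20 sites opened in both genotypes comprised 13 in introns (65%, beside 54.5% of all sites of that class) and 7 between genes (35%, beside 39.7%), and 1 of them was at a promoter of its member gene. Of the 42 open in all 4 libraries, 8 were. With the promoters of any annotated gene counted, the shares were 3 of the 20 (15%, beside 5.99% of all opened sites) and 14 of the 42 (33.3%, beside 43.3%). The sites open in all 4 libraries were the wider, with a median of 663 bp against 306 bp for opened and 311 bp for closed sites, and richer in G and C, with a median of 53.5% against 49.5% and 48.5%. The same order held over all sites of the series for those opened (271 bp, 49.8%) and those open in all 4 (669 bp, 57.2%). AP-1 letters were found at 19 of the 48 member sites closed in both genotypes (39.6%) and at 0 of the 20 opened in both. Over all sites of these classes the shares were 31.9% and 7.11%. C/EBP letters were at 6 of the 20 opened sites (30%) and at 3 of the 48 closed ones (6.25%), beside 26.9% and 8.83% of all such sites and 11.5% of all sites. The Prkar2b -48.1 kb sequence printed above, which had peaks on both days and far more tags at D8, does hold an AP-1 match.

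The full CRE was rare, at 673 of all sites (0.669%). It was found at 2 member sites, Adcy3 -1.6 kb (chr12:4201522-4202281) and Pde4d +65.4 kb (chr13:110612381-110613411), both of which had peaks in all 4 libraries. The former had 20, 9, 23 and 8 tags in WT D0, WT D8, HY D0 and HY D8, and the latter 67, 31, 70 and 37. Scaled, the latter was 0.574 times its D0 height in WT (0.363 to 0.892), and its HY interval held 1. Both intervals of the former held 1. The core was at 30 of the 202 (14.9%), against 10.9% of all sites. Among the opened ones it was at Adcy5 +14.7 kb, Adrb3 -1.2 kb and Pde4d +32.1 kb. EBF letters were at 2 member sites (0.99%, against 1.36%), DR1 letters at 1 (0.495%, against 0.379%) and the glucocorticoid element at 0 (against 0.449%). A match is only a run of letters, and binding was not measured here.

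A wider list of 66 genes of the same pathway (receptors, G proteins and their regulators, cyclases, PKA and its anchors, EPAC, phosphodiesterases, and CREB family members with their coactivators), listed without the 9, gave 859 sites. In WT 13.1% of its sites opened (12.1% of all sites did) and 45.1% closed (against 52.7%), and in HY 14.9% opened (against 13.7%) and 44.8% closed (against 49.3%). Opening in both genotypes was called at 50 sites of 26 genes, which is 5.82% of its sites beside 5.99% of all sites, and closing in both at 170 sites of 51 genes, 19.8% beside 24.6%. By class, the opened sites were 11 of 100 at receptors, 6 of 112 at G proteins and regulators, 8 of 92 at cyclases, 9 of 144 at PKA and anchors, 2 of 42 at EPAC, 11 of 260 at phosphodiesterases and 3 of 109 at the CREB family. Grk5, a kinase that desensitises receptors, had 4 among its 32 sites. Of the 6 genes with 3 each, the thyrotropin receptor gene Tshr held 7 sites and the receptor gene Mc2r 5. The cyclase genes Adcy9 and Adcy10 held 13 and 8, the PKA anchor gene Akap13 31 and the phosphodiesterase gene Pde4b 38. The CREB coactivator genes Crtc1, Crtc2 and Crtc3 had 22, 9 and 21 sites. At these, 0 opened in both genotypes and 4, 1 and 3 closed in both, beside 5.99% and 24.6% of all sites. Nothing is read from so few sites.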

How the data were processed

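ATAC-seq of 4 im-scWAT libraries was analysed from the peak list deposited for each. Per the labels and the study's methods, reads were aligned to mm9 with Bowtie2 and filtered with SAMtools and Picard. Tool versions, the calling threshold and any shift of read ends for the Tn5 offset are not given in the sources used here. The authors' peak caller wrote the fold enrichment of each summit (a ratio to local background, not normalised between libraries), its -log10 p and -log10 q, a score that was not used, and the summit's offset, another deposited column.

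The fold, (pileup + 1)/(background + 1), and the Poisson -log10 p were solved together for a whole-number pileup, within 0.002 for 100% of the peaks. The lowest background of a list, its genome-wide rate, scaled the pileups. Genes, TSSs and sequence came from the NCBIM37 genome with GENCODE annotation, and a promoter site has its summit 1000 bp upstream to 100 bp downstream of a TSS. Pileups have exact Poisson intervals, ratios exact conditional binomial ones (SciPy 1.17.1). The steps were tested on simulated data.

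The sites named were all promoter sites, per gene the 2 strongest opened and the strongest closed in both genotypes, the 5 strongest D8 sites of each genotype alone, and D8 sites that differed 2-fold. Sites outside these groups, all printed sequences and the 2 stretches of Adrb3 and Pde4d were chosen after their values were seen. The members and lists were chosen with earlier results of these data known. Alternatives were peaks with -log10 q of at least 5, lists of equal length, a 50% overlap, summits within 150 bp, windows of 20 and 100 kb, and 2 other scalings. Leaving out Pde4d, and keeping only sites nearest to a member's TSS, were added after seeing the data.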

Additional observations from a re-analysis of the deposited data

Results flagged for a closer look

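At Adcy3 the genotypes differed in opposite directions on the 2 days in the number of open sites. HY had 12 and WT 10 at D0, a difference of 2, and HY had 8 and WT 9 at D8, a difference of -1. These rested on low peaks. At D0 they were -8.5 kb and -1.7 kb, called in HY alone with 5 and 7 tags. At D8 it was +5.7 kb, with 7 tags in WT and no peak in HY. Over all sites, 21.7% were HY only at D0 and 9.53% WT only at D8, and the HY D0 list was the longest, with 77994 peaks. The change of direction was not tested, since each group was 1 library.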

How the results depend on the processing

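Of 106 recomputed counts, 73 lay within 1.5 times the count reported, and 33 did not. Opened sites (31 in WT, 38 in HY) were always within it. Without Pde4d, closed sites numbered 36 in WT and 38 in HY, D0 sites of one genotype 15 in HY and 10 in WT, D8 sites of HY alone 15, and sites at least 2-fold lower at D8 2 in WT and 3 in HY. With lists of equal length, closed sites numbered 25 in WT and 32 in HY, D0 sites of one genotype 15 in HY and 9 in WT, and D8 sites of HY alone 12. With a -log10 q of at least 5, D8 sites of one genotype numbered 10 in HY and 9 in WT, those at least 2-fold higher at D8 2 in each genotype, those at least 2-fold lower 2 in each, and D8 sites 2-fold higher in HY 0. With the 50% overlap rule, sites at least 2-fold higher at D8 numbered 2 in WT and 3 in HY, those at least 2-fold lower 1 in each, and D8 sites 2-fold higher in HY 0. With sites built from summits within 150 bp, WT alone had 32 sites at D0 and 27 at D8. Without scaling, sites at least 2-fold lower at D8 numbered 8 in WT and 17 in HY, those higher 3 in WT, and D8 sites 2-fold lower in HY 2. Scaled to shared promoters, 2 WT sites were at least 2-fold lower at D8, and D8 sites past 2-fold between genotypes numbered 0 higher and 2 lower in HY. Fewer genes or peaks were counted by construction in the first 3 settings, and the cause was not tested in the others. The scalings also moved the median log2 ratio of D8 to D0 over all shared sites, which was -0.16 in WT and -0.18 in HY as reported, -0.47 and -0.70 without scaling, and -0.05 and -0.16 with shared promoters. No paired analysis was possible because the groups share fewer than 2 replicate numbers and the counts come from no test. The days were compared within each genotype instead. Depth limits the low sites: a peak at the background rate needed 4 or 5 tags, so a missing peak there does not show closed chromatin.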
